A study of Mus musculus with 12 samples.

Results

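The primary cilium is a single antenna of microtubules on the surface of most epithelial cells, and it is built and kept up by intraflagellar transport. The 32 genes described here encode that machinery in the mouse. They were chosen by name, from the complexes their proteins belong to, and not by any value in these data. Earlier results of these data were known when the choice was made. All 32 were found among the 47642 genes of the table, each under 1 identifier, and all 32 were among the 18552 genes that passed the filter on low values, for which the mean over the 12 libraries had to reach 1 normalized count. They comprise 6 genes of the IFT-A complex, 12 genes assigned to the core of IFT-B, 6 peripheral IFT-B genes, 4 genes of the dynein-2 motor and 4 genes of the kinesin-2 motors.

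Transport trains are assembled at the ciliary base from IFT-A and IFT-B particles. Kinesin-2 pulls them to the tip along the axonemal microtubules, and dynein-2 brings them back. Membrane proteins, tubulin and signalling proteins ride on the trains or enter the cilium with their help. The polycystins encoded by Pkd1 and Pkd2 reside in renal cilia, and loss of Ift88 or Kif3a in the mouse kidney is a textbook cause of cysts.

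RNA was sequenced from murine inner medullary collecting duct 3 cells (mIMCD3), a line from mice that carry the early region of simian virus 40 as a transgene, which keeps the cells dividing. The comparison involved unedited wild-type cells (Wt), 1 Pkd1-/- clone made by CRISPR/Cas9 and 1 Pkd2-/- clone made with TALE nucleases, with 4 libraries per genotype. Each library came from its own dish, harvested 4 days after full confluency, a state in which these cells carry cilia, and 4 of 6 dishes per genotype were sequenced after selection for RNA purity. Because each mutant is 1 clone, the effect of the genotype and that of the clone cannot be told apart, and p-values measure only the spread between dishes of 1 clone. The values are normalized counts, that is reads per gene divided by a size factor for each library.

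Library totals lay between 25966273 and 28027792 normalized counts, and 1 read was worth an estimated 0.886 to 1.13 normalized counts. Pkd1 had 782 ± 112 normalized counts in Wt and 41.8 ± 8.81 in Pkd1-/- cells (mean ± SD, n = 4). Pkd2 had 3971 ± 451 in Wt and 3986 ± 124 in Pkd2-/- cells, and since the deletion spares most exons of Pkd2, its total count does not check the label of that clone. Of 11 markers of collecting duct and epithelium, Aqp2, the water channel of principal cells, was at 0 in every library, whereas Epcam and Cdh1 were abundant. By the test described below, at an adjusted p under 0.05, 3 of the 10 markers tested were lower and none higher in Pkd1-/- cells. In Pkd2-/- cells 6 were higher and 3 lower. Of all genes tested, 27.1% were called in Pkd1-/- and 42.3% in Pkd2-/- cells. Krt19 had log2 fold changes of −1.75 in Pkd1-/- and −1.66 in Pkd2-/- cells, and Gata3 had −2.20 and 0.64. The proximal tubule receptor Lrp2 averaged 508 normalized counts in Wt, 46.2 in Pkd1-/- and 934 in Pkd2-/- libraries, while Slc34a1, a defining transporter of that segment, was at 0. The part of these marker shifts in the results below was not tested. In whole cultures, fewer cells with a given transcript and less of it per cell cannot be told apart.

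Every complex was expressed in wild-type cells. Levels between genes are compared here as normalized counts per kb of annotated exon, which corrects for the length of the gene. On this scale IFT-A ranged from 35.3 for Ttc21b, a peripheral subunit also known as IFT139, to 829 for Ift43, a small subunit. The IFT-B core ranged from 30.8 for Ttc30a1 to 557 for Ift27, a Rab-like GTPase, with Ttc30a2 apart at 0.514. The 6 peripheral IFT-B genes lay closer together, from 187 for Ift172 to 572 for Ift20, a subunit also found at the Golgi. Within dynein-2 the heavy chain Dync2h1 had 27.3 and the light intermediate chain Dync2li1 had 1042, the highest level of all 32 genes. Within kinesin-2 the adaptor Kifap3 had 613, the motors Kif3a and Kif3b had 415 and 199, and Kif17, the motor that acts as a homodimer, had 8.62. Cluap1 and Ift57 had 367 and 365 and could not be ranked, as their 4 libraries overlapped. These levels depend on the transcript model, since annotated exons include retained introns. Measured against the longest transcript alone, Ift43 had 1633 and Dync2li1 1439, so that the order of these genes was exchanged.

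**Figure D1:**
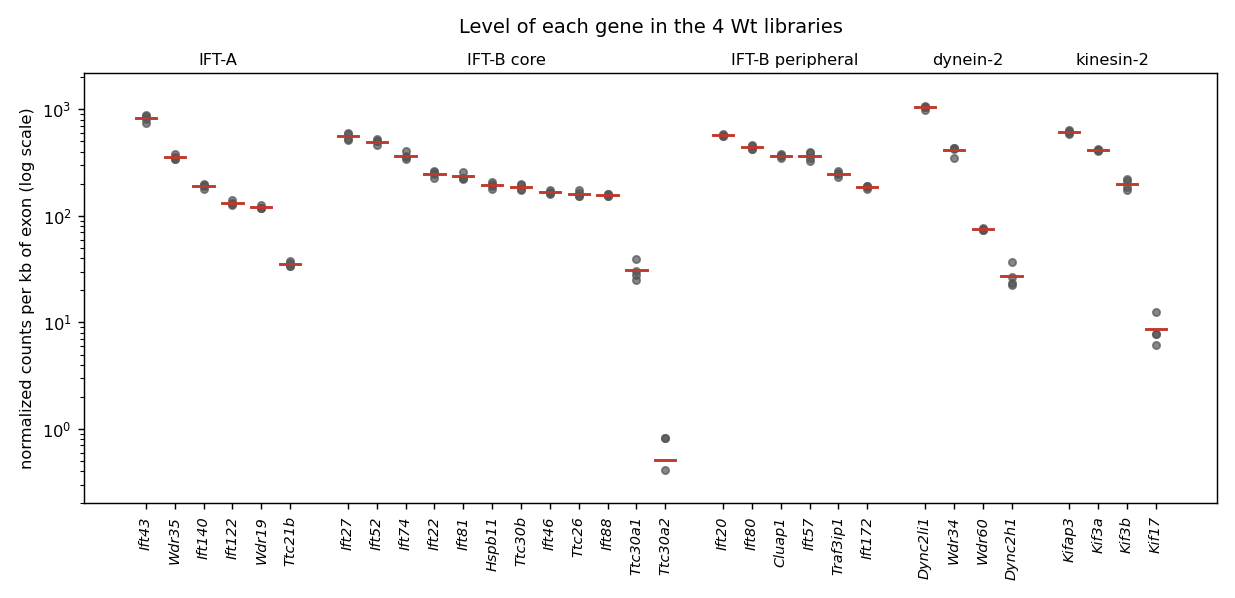
Normalized counts per kb of annotated exon (y, log scale) for each gene (x, ordered within its complex), with points for the 4 Wt libraries and a red line for their mean. Most genes lie between 100 and 1042, while Ttc21b, Ttc30a1, Dync2h1 and Kif17 lie below 40 and Ttc30a2 below 1. A library at 0 is not drawn, which applies to 1 library of Ttc30a2.

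The lowest members carry the largest spread. Kif17 had 28, 58, 36 and 36 normalized counts in the 4 Wt libraries, 31, 34, 42 and 57 in Pkd1-/- and 40, 35, 37 and 48 in Pkd2-/- libraries. All 3 genotypes overlapped, and the 95% interval of the log2 fold change reached from −0.43 to 0.56 in Pkd1-/- and from −0.44 to 0.56 in Pkd2-/- cells. Ttc30a2 had 2, 0, 2 and 1 normalized counts in Wt, 0, 3, 0 and 3 in Pkd1-/- and 0, 1, 0 and 2 in Pkd2-/- libraries, too few for a fold change. Ttc30a1, Ttc30a2 and Ttc30b are neighbouring genes that encode near-identical proteins, and 31.8%, 53.9% and 34.8% of their 50-base words occur in one another's transcripts, so that the division of reads among them is uncertain. Cluap1 shares 22.4% of its exon bases with annotated genes of the same strand and 18.4% with genes of the other strand, which also makes its count uncertain. No other member shared more than 8% of its exon bases.

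Differential expression was tested with limma on log2(normalized count + 1) across all genes tested, and a gene was called at a Benjamini-Hochberg adjusted p under 0.05. In Pkd1-/- cells 13 of the 32 genes were called, 7 higher and 6 lower than in Wt, where 27.1% of all genes tested were called, 13.6% higher and 13.5% lower. In Pkd2-/- cells 18 were called, 5 higher and 13 lower, against 42.3% of all genes, 20% higher and 22.3% lower. After upper quartile rescaling 2 were higher and 13 lower in Pkd2-/- cells, and 3 were higher without Wt replicate 1, Wt replicate 2, Pkd2-/- replicate 1 or Pkd2-/- replicate 2. Between the mutants 19 were called, 5 higher and 14 lower in Pkd2-/- cells, against 46.3% of all genes, 21.9% higher and 24.3% lower. None of the 32 genes reached a log2 fold change of 1 in size in any comparison, a size that 6.24%, 9.62% and 11.8% of all genes tested reached along with an adjusted p under 0.05 in the 3 comparisons in this order.

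Most members are well expressed, and small changes are called more readily in such genes. Among the 9521 genes with a mean of 100 to 5150 normalized counts, the range that holds 30 of the 32 members, 36.5%, 59.0% and 63.1% were called in the 3 comparisons. In that range 13, 18 and 19 of the 30 members were called, shares close to those of other genes of their level. A called log2 fold change of 1 or more in size was reached by 3.14%, 6.13% and 7.40% of the genes in that range. The median size of the log2 fold change over the members was 0.15, 0.19 and 0.23, where it was 0.14, 0.23 and 0.25 over the genes in that range. By direction, 18.1% of the genes in that range were higher and 18.3% lower in Pkd1-/- cells, beside 7 and 6 members. In Pkd2-/- cells it was 29.1% and 29.9%, beside 5 and 13 members, and between the mutants 30.8% and 32.3%, beside 5 and 14. The transport genes as a list were therefore called about as often, over both directions, as other genes of like abundance. Their lean towards lower values in Pkd2-/- cells was not tested, and the results below are those of single subunits.

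**Figure D2:**
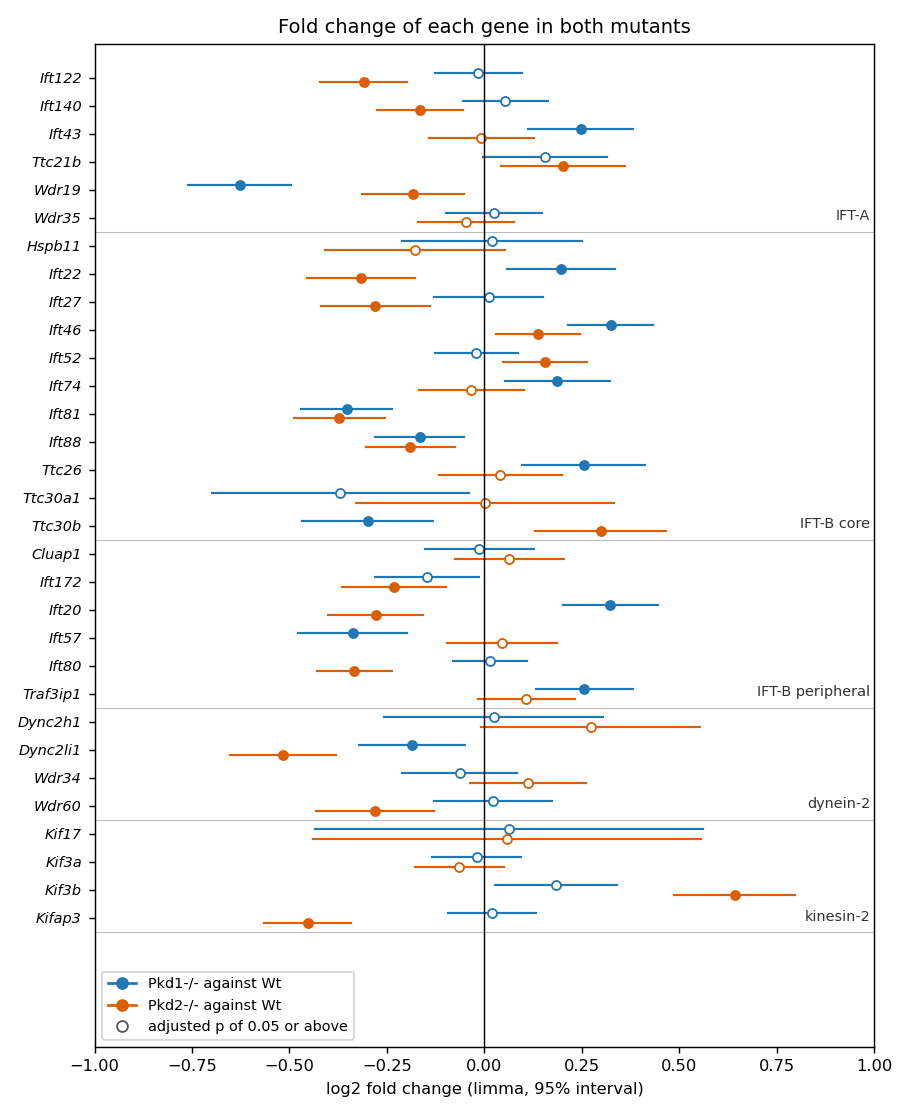
Log2 fold change against Wt (x) with its 95% interval for each gene (y, grouped by complex) in Pkd1-/- (blue) and Pkd2-/- cells (orange), with filled points for an adjusted p under 0.05. Wdr19 in Pkd1-/- cells (−0.63) and Kif3b (0.64), Dync2li1 (−0.52) and Kifap3 (−0.45) in Pkd2-/- cells lie farthest from 0. Ttc30a2 is not drawn.

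In IFT-A, which serves the return journey and the entry of membrane proteins, 1 gene rose and 1 fell in Pkd1-/- cells, and 1 rose and 3 fell in Pkd2-/- cells. The largest change was that of Wdr19, also known as IFT144, a subunit of the IFT-A core on chromosome 5 (chr5:65199696-65260415 of GRCm38). Wdr19 had 1326, 1324, 1331 and 1436 normalized counts in Wt, 817, 935, 840 and 916 in Pkd1-/- and 1177, 1259, 1083 and 1258 in Pkd2-/- libraries. Both mutants lay wholly below Wt and did not overlap each other. Wdr19 had a log2 fold change of −0.63 ± 0.06 (SE) in Pkd1-/- cells, a change of −35.2% (adjusted p = 3.00e-07), and −0.18 ± 0.06 in Pkd2-/- cells (adjusted p = 0.0240). The call in Pkd2-/- cells was lost without Wt replicate 4 or Pkd2-/- replicate 1 or 3, where Wdr19 had −0.16, −0.18 and −0.14.

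Ift122, another core subunit, fell in Pkd2-/- cells by 0.31 ± 0.05 on the log2 scale (adjusted p = 9.06e-05) and had a log2 fold change of −0.02 ± 0.05 in Pkd1-/- cells. The values of Ift122 were 1293 to 1460 in Wt, 1331 to 1373 in Pkd1-/- and 1039 to 1148 in Pkd2-/- libraries, so that only Pkd2-/- stood apart from Wt. Ift140, which lies 419577 bases from Pkd1 on chromosome 17, fell in Pkd2-/- cells by 0.17 ± 0.05 (adjusted p = 0.0154) and had 0.05 ± 0.05 in Pkd1-/- cells.

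Ift43 had 1337, 1421, 1475 and 1241 normalized counts in Wt, 1623, 1541, 1692 and 1630 in Pkd1-/- and 1376, 1369, 1475 and 1225 in Pkd2-/- libraries. The Pkd1-/- libraries lay above all others, and the gene rose by 0.25 ± 0.06 in Pkd1-/- cells (adjusted p = 0.00653). Ttc21b, the lowest IFT-A gene, had 313, 335, 347 and 317 in Wt, 362, 405, 347 and 350 in Pkd1-/- and 384, 398, 365 and 363 in Pkd2-/- libraries. Its rise of 0.20 ± 0.08 in Pkd2-/- cells (adjusted p = 0.0378) was close to the threshold, and it turned to −0.07 with no call when centred on its neighbours. Wdr35 was not called in either mutant, with log2 fold changes of 0.03 ± 0.06 and −0.05 ± 0.06.

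**Figure D3:**
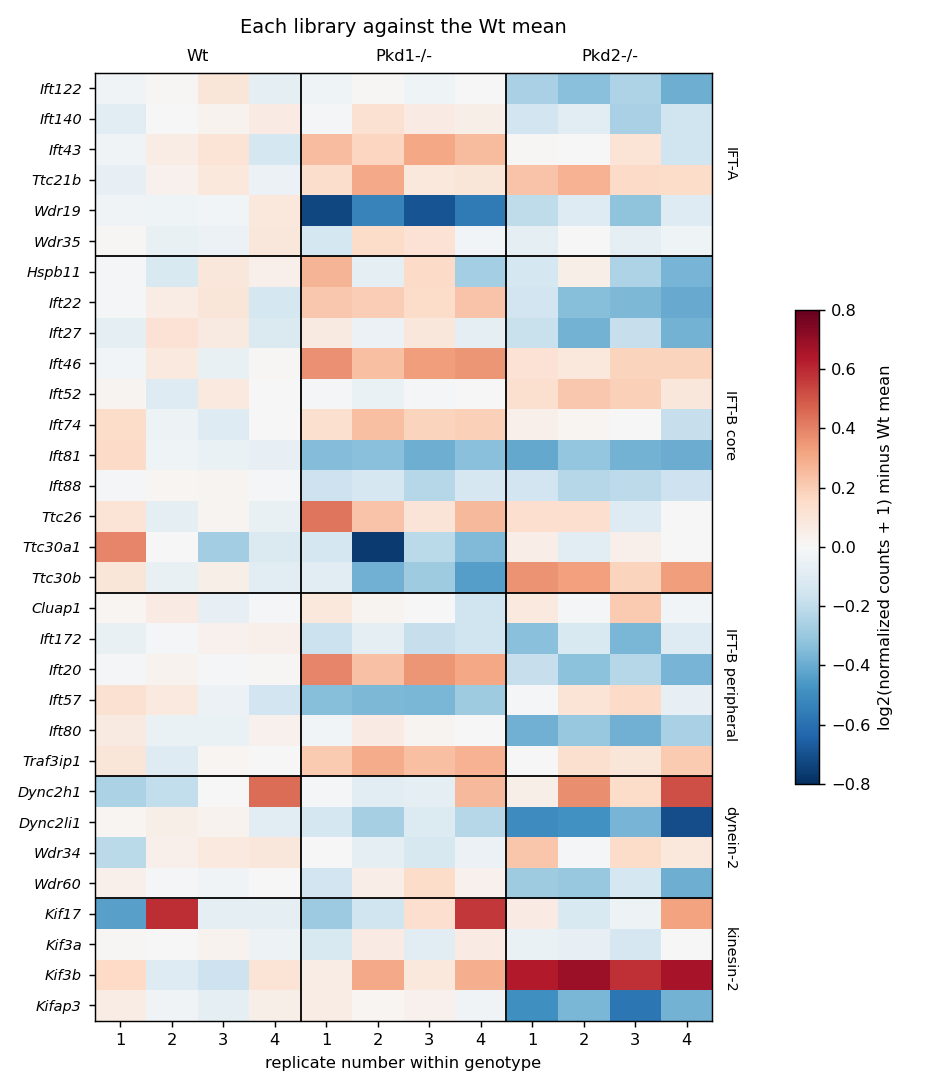
Map of 31 genes (rows, by complex) in the 12 libraries (columns, replicates 1 to 4 of each genotype), coloured by log2(normalized count + 1) minus the mean of the 4 Wt libraries. The 4 Pkd2-/- libraries are uniformly red for Kif3b and blue for Kifap3, Dync2li1, Ift80, Ift81 and Ift122, and the 4 Pkd1-/- libraries are uniformly blue for Wdr19, Ift57 and Ift81. Ttc30a2 is left out.

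The IFT-B core carries tubulin and the small GTPase modules along the axoneme. Of its 12 genes, 4 rose and 3 fell in Pkd1-/- cells, and 3 rose and 4 fell in Pkd2-/- cells. Ift81, which forms the tubulin-binding module with Ift74, had 1519, 1334, 1315 and 1307 normalized counts in Wt, 1072, 1083, 1042 and 1082 in Pkd1-/- and 1030, 1104, 1051 and 1037 in Pkd2-/- libraries. Both mutants lay below every Wt library. Ift81 fell by 0.35 ± 0.06 in Pkd1-/- (adjusted p = 7.61e-05) and by 0.37 ± 0.06 in Pkd2-/- cells (adjusted p = 2.15e-05), and the mutants differed by −0.02 with a 95% interval from −0.14 to 0.10. Centred on its neighbours, as described below, Ift81 had −0.04 with no call in Pkd1-/- cells and −0.37 with a call in Pkd2-/- cells. The mutants then differed by −0.33 (limma, adjusted p = 0.000131).

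Its partner did not take the same course. Ift74 had 907 to 1083 normalized counts in Wt, 1069 to 1156 in Pkd1-/- and 860 to 1003 in Pkd2-/- libraries. The Wt and Pkd1-/- libraries overlapped slightly, and Ift74 rose by 0.19 ± 0.06 in Pkd1-/- cells (adjusted p = 0.0375) and had −0.03 ± 0.06 in Pkd2-/- cells. Ift88, whose hypomorphic mouse mutant develops cystic kidneys, varied little between dishes, with 718 to 738 in Wt, 622 to 663 in Pkd1-/- and 620 to 653 in Pkd2-/- libraries. Ift88 fell by 0.17 ± 0.05 in Pkd1-/- (adjusted p = 0.0293) and by 0.19 ± 0.05 in Pkd2-/- cells (adjusted p = 0.00789).

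Among the GTPases, Ift27 had 1516, 1723, 1675 and 1467 normalized counts in Wt, 1673, 1544, 1692 and 1514 in Pkd1-/- and 1407, 1226, 1400 and 1224 in Pkd2-/- libraries. Only the Pkd2-/- libraries stood apart, and Ift27, which helps to export BBSome cargo, fell in them by 0.28 ± 0.07 (adjusted p = 0.00208). Ift22, also known as Rabl5, had 889, 937, 961 and 814 in Wt, 1042, 1031, 996 and 1051 in Pkd1-/- and 808, 708, 699 and 679 in Pkd2-/- libraries. Pkd1-/- lay above and Pkd2-/- below all Wt libraries, with log2 fold changes of 0.20 ± 0.07 (adjusted p = 0.0329) and −0.32 ± 0.07 (adjusted p = 0.000672). Centred on its neighbours, Ift22 had −0.13 in Pkd1-/- cells and was not called there.

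Ift46 carries outer dynein arms in motile cilia. It rose by 0.32 ± 0.05 in Pkd1-/- cells (limma, adjusted p = 8.79e-05). In Pkd2-/- cells it rose by 0.14 ± 0.05 (limma, adjusted p = 0.0390). Ift52, a scaffold of the core, had 1299 to 1473 in Wt, 1345 to 1393 in Pkd1-/- and 1487 to 1621 in Pkd2-/- libraries. Ift52 rose by 0.16 ± 0.05 in Pkd2-/- cells (adjusted p = 0.0187), a call lost after upper quartile rescaling and turned to −0.20 when the gene was centred on its neighbours on chromosome 2, as described below. Ttc26 rose by 0.25 ± 0.07 in Pkd1-/- cells (adjusted p = 0.0154), although 1 of the Pkd1-/- libraries, at 808, lay below the highest Wt library at 812. Hspb11, also known as IFT25 and the partner of Ift27, was not called in any comparison, with 95% intervals from −0.21 to 0.25 in Pkd1-/- and from −0.41 to 0.05 in Pkd2-/- cells.

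Ttc30b had 547, 491, 529 and 481 normalized counts in Wt, 481, 391, 420 and 377 in Pkd1-/- and 655, 641, 578 and 645 in Pkd2-/- libraries. The Pkd2-/- libraries lay above all others, while Pkd1-/- met Wt at 481. Ttc30b fell by 0.30 ± 0.08 in Pkd1-/- (adjusted p = 0.00823) and rose by 0.30 ± 0.08 in Pkd2-/- cells (adjusted p = 0.00513). Ttc30a1 was not called, with log2 fold changes of −0.37 ± 0.16 and 0.00 ± 0.16 on 66 to 148 normalized counts.

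The peripheral subunits connect the trains to kinesin-2 and to cargo. Of these 6 genes, 2 rose and 1 fell in Pkd1-/- cells, and none rose and 3 fell in Pkd2-/- cells. Ift20, which helps membrane proteins such as polycystin-2 on their way from the Golgi to the cilium, had 863, 889, 862 and 878 normalized counts in Wt, 1147, 1025, 1117 and 1084 in Pkd1-/- and 768, 695, 745 and 673 in Pkd2-/- libraries. The 3 genotypes were fully separated. Ift20 (chr11:78536361-78541737) rose by 0.32 ± 0.06 in Pkd1-/- (adjusted p = 0.000285) and fell by 0.28 ± 0.06 in Pkd2-/- cells (adjusted p = 0.000626). Between the mutants it differed by −0.60 ± 0.06 (adjusted p = 6.83e-08).

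Ift80, the most abundant member by count, had 5781, 5314, 5315 and 5633 normalized counts in Wt, 5426, 5755, 5603 and 5484 in Pkd1-/- and 4218, 4458, 4221 and 4596 in Pkd2-/- libraries. Pkd2-/- lay below all other libraries, and Ift80 fell in it by 0.33 ± 0.05 (adjusted p = 7.31e-06), a change of −20.6%. In Pkd1-/- cells it had 0.02 ± 0.05, with a 95% interval from −0.08 to 0.11. Ift172, the large subunit that takes part in turnaround at the tip, had 1187, 1224, 1270 and 1274 in Wt, 1098, 1175, 1089 and 1111 in Pkd1-/- and 982, 1139, 959 and 1151 in Pkd2-/- libraries.

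Ift172 fell by 0.23 ± 0.06 in Pkd2-/- cells (adjusted p = 0.00583). Its Pkd1-/- libraries were also all below Wt, but the log2 fold change of −0.15 ± 0.06 did not pass the threshold (adjusted p = 0.0955). Ift57 had 936 to 1136 in Wt, 810 to 855 in Pkd1-/- and 997 to 1158 in Pkd2-/- libraries and fell in Pkd1-/- cells by 0.34 ± 0.07 (adjusted p = 0.000747). Its neighbours on chromosome 16 had a median of −0.42, and Ift57 had 0.11 and no call when centred on them. Traf3ip1, also known as IFT54, rose in Pkd1-/- cells by 0.26 ± 0.06 (adjusted p = 0.00276) and had 0.11 ± 0.06 in Pkd2-/- cells. Cluap1, also known as IFT38, was not called in any comparison.

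The motors gave the largest changes in Pkd2-/- cells. Of the 4 dynein-2 genes, 1 fell in Pkd1-/- cells and 2 fell in Pkd2-/- cells. Dync2li1 (chr17:84626496-84655588) had 1964, 2014, 1987 and 1826 normalized counts in Wt, 1768, 1622, 1802 and 1659 in Pkd1-/- and 1375, 1389, 1505 and 1188 in Pkd2-/- libraries. The 3 genotypes did not overlap. Dync2li1 fell by 0.52 ± 0.06 in Pkd2-/- cells (adjusted p = 2.60e-06), a change of −30.0%, and by 0.19 ± 0.06 in Pkd1-/- cells (adjusted p = 0.0395).

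Wdr60, an intermediate chain of dynein-2, fell in Pkd2-/- cells by 0.28 ± 0.07 (adjusted p = 0.00389). The second intermediate chain, Wdr34, was not called in either mutant and had log2 fold changes of −0.06 ± 0.07 and 0.11 ± 0.07. The heavy chain Dync2h1 had 368, 382, 440 and 598 normalized counts in Wt, 436, 414, 416 and 526 in Pkd1-/- and 454, 569, 486 and 628 in Pkd2-/- libraries. These groups overlapped, and the 95% interval in Pkd2-/- cells was wide, from −0.01 to 0.55. It did not reach the fall of Dync2li1, whose interval was −0.65 to −0.38.

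Of the 4 kinesin-2 genes, none was called in Pkd1-/- cells, where 1 passed an unadjusted p of 0.05, and 1 rose and 1 fell in Pkd2-/- cells. Kif3b, a motor subunit of heterotrimeric kinesin-2 on chromosome 2 (chr2:153291413-153333390), had 1250, 1042, 995 and 1206 normalized counts in Wt, 1163, 1377, 1188 and 1367 in Pkd1-/- and 1738, 1795, 1679 and 1770 in Pkd2-/- libraries. Pkd2-/- lay well above all other libraries. Kif3b rose in Pkd2-/- cells by 0.64 ± 0.07 (adjusted p = 1.02e-06), to 155% of Wt, and had 0.18 ± 0.07 in Pkd1-/- cells (adjusted p = 0.0777).

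Kifap3 (chr1:163779583-163917109), which joins the motor pair to its cargo, had 2561, 2410, 2334 and 2540 normalized counts in Wt, 2565, 2484, 2521 and 2408 in Pkd1-/- and 1750, 1905, 1646 and 1896 in Pkd2-/- libraries. Kifap3 moved against Kif3b in Pkd2-/- cells, where it fell by 0.45 ± 0.05 (adjusted p = 1.27e-06), a change of −26.9%. Kif3a, the partner of Kif3b in the motor, was not called in either mutant and had narrow 95% intervals, from −0.13 to 0.09 in Pkd1-/- and from −0.18 to 0.05 in Pkd2-/- cells. The 3 subunits of heterotrimeric kinesin-2 therefore had log2 fold changes of −0.06, 0.64 and −0.45 in the same Pkd2-/- libraries. Centred on their neighbours, as described below, they had −0.03, 0.37 and −0.46.

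**Figure D4:**
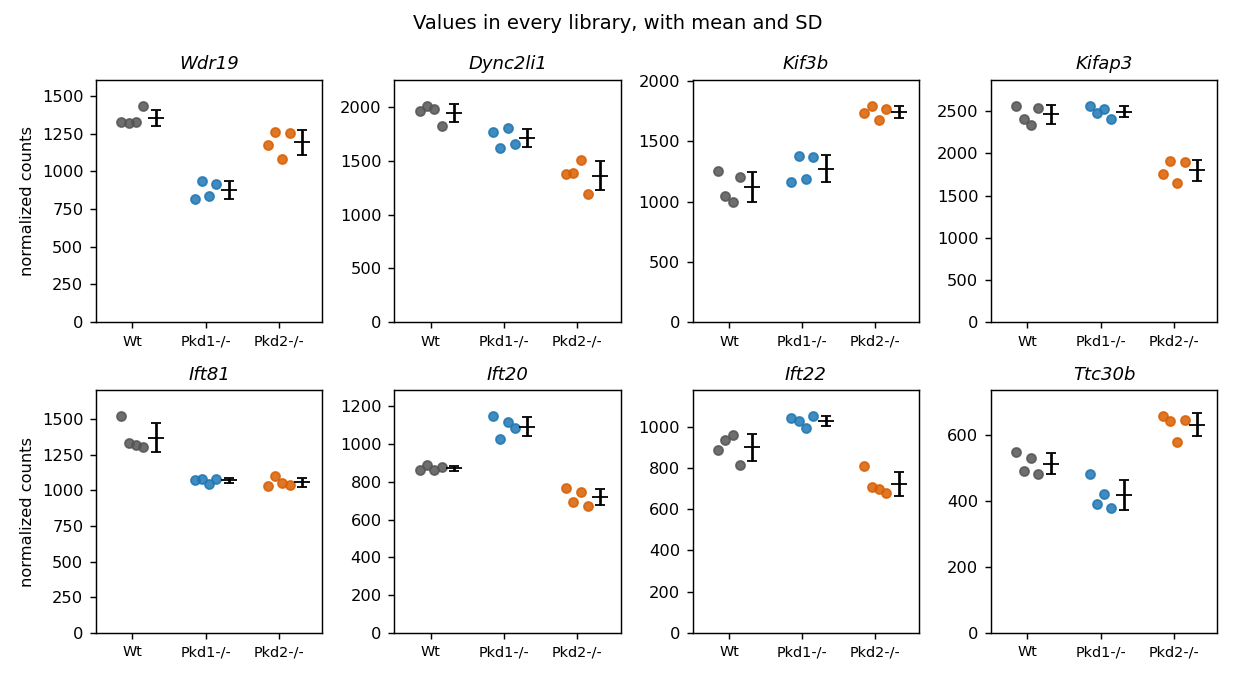
Normalized counts (y, from 0) of 8 genes in each library (points) of Wt, Pkd1-/- and Pkd2-/- cells, with the mean and SD of 4 libraries beside them. Wdr19 is lowest in Pkd1-/-, Dync2li1 and Kifap3 are lowest and Kif3b highest in Pkd2-/- libraries, Ift81 is lower in both mutants, Ttc30b is highest in Pkd2-/- and Ift20 and Ift22 are higher in Pkd1-/- and lower in Pkd2-/- than in Wt. Centred on their neighbours, Ift22 turned to −0.13 and Ift81 had −0.04 in Pkd1-/- cells, and neither was called there.

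Whole groups of libraries separated for some members, and the shares set beside them are over tested genes of every level. In Pkd1-/- cells 11 of the 32 genes did not overlap with Wt, 5 above and 6 below, where 27.1% of all genes tested did not. In Pkd2-/- cells 18 did not overlap with Wt, 5 above and 13 below, against 37.2% of all genes. Between the mutants 17 did not overlap, against 41.8%. No such share was taken among genes of like abundance, so an excess of the members cannot be read from these counts.

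The mutants share the Wt libraries as their control, so that their changes against Wt are not independent of each other. All 12 libraries shared the same estimate of the spread, so SEs and adjusted p-values rest on Wt in every comparison. The direct comparison of Pkd2-/- with Pkd1-/- cells takes its log2 difference alone without Wt. In it, Ift20 was lower by a log2 difference of −0.60, Ift22 by −0.51 ± 0.07 (adjusted p = 2.96e-06), Kifap3 by −0.47 ± 0.05 (adjusted p = 5.69e-07), Ift80 by −0.35 ± 0.05 (adjusted p = 3.32e-06) and Dync2li1 by −0.33 ± 0.06 (adjusted p = 0.000294) in Pkd2-/- cells. The genes that were higher in Pkd2-/- than in Pkd1-/- cells were Ttc30b by 0.60 ± 0.08 (adjusted p = 4.71e-06), Kif3b by 0.46 ± 0.07 (adjusted p = 4.48e-05), Wdr19 by 0.44 ± 0.06 (adjusted p = 8.60e-06), Ift57 by 0.38 ± 0.07 (adjusted p = 9.81e-05) and Ift52 by 0.18 ± 0.05 (adjusted p = 0.00776). The remaining 9 called genes, Ift122, Ift140, Ift43, Ift27, Ift46, Ift74, Ttc26, Traf3ip1 and Wdr60, were lower in Pkd2-/- cells by at most 0.30 in size.

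The position of a member on its chromosome moved with several of these results. Around each gene, the log2 fold changes of the other genes within 5 Mb that averaged 10 or more normalized counts were taken for comparison, as their median. On chromosome 2 the median over 1058 such genes was 0.33 in Pkd2-/- cells relative to Wt, and 61.1% of them were called higher and 8.03% lower. Chromosome 2 holds 7 of the 32 members, and 4 of the 5 members that rose in Pkd2-/- cells, Ttc21b, Ift52, Ttc30b and Kif3b, lie there. Their neighbours had medians of 0.37, 0.34, 0.23 and 0.28, where the genes themselves had 0.20, 0.16, 0.30 and 0.64. Kif3b thus exceeded its neighbourhood and the lower end of its 95% interval, 0.49, lay above the neighbours' median. Ttc21b and Ift52 rose less than the genes around them, with upper ends of their intervals at 0.36 and 0.26, and the neighbours' median of Ttc30b lay inside its interval. The fifth member that rose, Ift46, lies on chromosome 9, where its neighbours had a median of −0.08.

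In Pkd1-/- cells the same held for parts of chromosomes 5 and 16. The neighbours of Wdr19, Ift81 and Ift172 on chromosome 5 had median log2 fold changes of −0.36, −0.35 and −0.34, those of Ift22 farther along the same chromosome had 0.29, and those of Ift57 on chromosome 16 had −0.42. For Ift22, Ift81 and Ift57 the neighbours' median lay inside the 95% interval of the gene. Wdr19 fell further than its neighbours, with the upper end of its interval at −0.50. For these genes a change of the gene itself and a change shared by its stretch of the chromosome cannot be told apart. The neighbours of Dync2li1, Kifap3, Ift20, Ift122 and Ift27 had medians between −0.04 and 0.02 in Pkd2-/- cells, where all 5 genes fell, and those of Ift20, Ift46, Ift43 and Traf3ip1 had 0.01 to 0.05 in Pkd1-/- cells, where all 4 rose.

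When every gene was centred in each library on its neighbours within 5 Mb before the test, an analysis chosen after the data had been seen, 12 members were called in Pkd1-/- cells, 8 higher and 4 lower, and 17 in Pkd2-/- cells, 4 higher and 13 lower. With this centring, 24.5% of all genes tested were called in Pkd1-/- cells and 41.0% in Pkd2-/- cells. Of the original calls of members, 10 and 13 were made again in the same direction. Ift22, Ift81 and Ift57 were no longer called in Pkd1-/- cells, where Ift172 and Ift80 were newly called higher, at 0.20 and 0.17. Ttc21b, Wdr19, Ift88 and Ttc30b were no longer called in Pkd2-/- cells, where Ttc26 and Dync2h1 were newly called higher, at 0.24 and 0.41, and Wdr34 lower, at −0.28. Between the mutants 18 members were called, beside 44.7% of all genes tested. Of the 19 calls there, 13 were made again, without Ift22, Ift46, Ttc26, Ift57 and Traf3ip1, while Ift52 turned to −0.15. Ttc21b, Ift81, Ift172 and Wdr34 were newly called lower there, at −0.25, −0.33, −0.43 and −0.16. Among the members called at first, the sign turned for Ift22 and Ift57 in Pkd1-/- and for Ttc21b, Wdr19 and Ift52 in Pkd2-/- cells, and Ift52 was then called lower, at −0.20. Kif3b remained higher in Pkd2-/- cells by 0.37 ± 0.08 and Wdr19 lower in Pkd1-/- cells by −0.30 ± 0.06, while Dync2li1, Kifap3 and Ift80 had −0.49, −0.46 and −0.40 in Pkd2-/- cells.

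**Figure D5:**
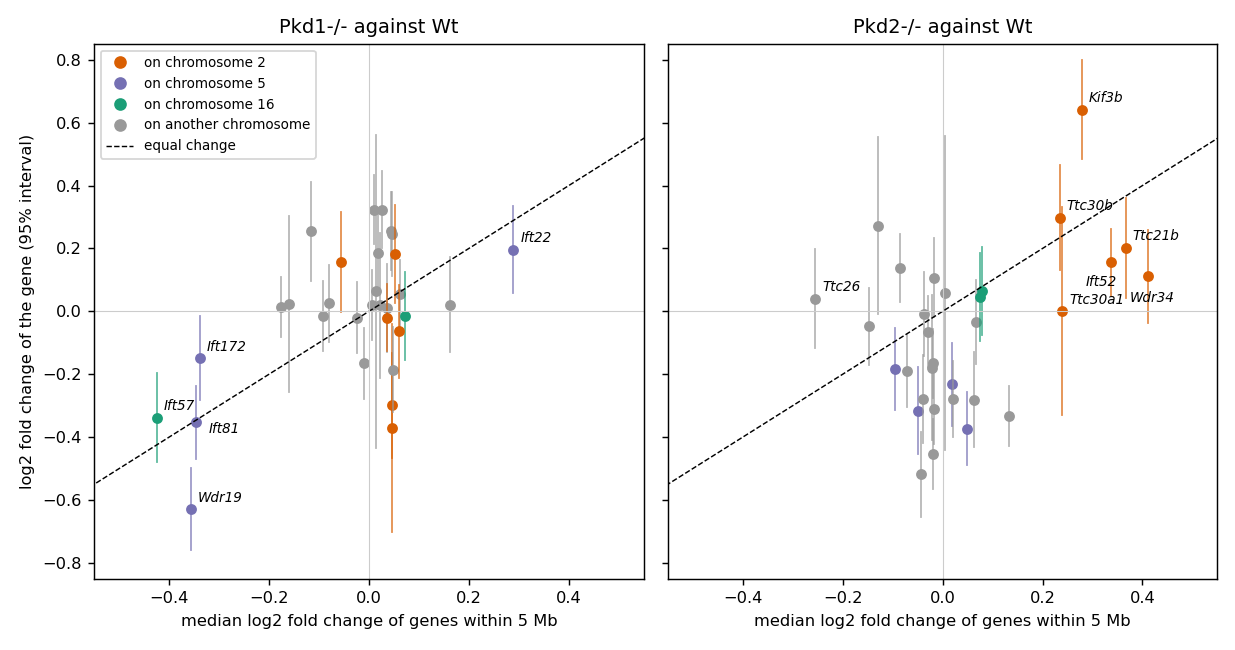
Log2 fold change of each gene with its 95% interval (y) against the median log2 fold change of the other genes within 5 Mb (x), in Pkd1-/- (left) and Pkd2-/- cells (right), coloured for chromosomes 2, 5 and 16, with the line of equal change dashed. Genes whose neighbours have a median of at least 0.2 in size are named. In Pkd2-/- cells the chromosome 2 genes lie at the right, with Kif3b at 0.64 above the line, and in Pkd1-/- cells Wdr19, Ift81, Ift172 and Ift57 lie at the left.

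Summed over the 32 genes, the libraries had 37561 to 38434 normalized counts in Wt, 37684 to 38424 in Pkd1-/- and 34493 to 35383 in Pkd2-/- cells. Pkd1-/- overlapped with Wt and had 100.3% of its mean, while Pkd2-/- lay below at 91.8%. By complex, the Pkd2-/- mean was 92.6% of Wt for IFT-A, 94.7% for the IFT-B core, 87.3% for the peripheral IFT-B genes, 86.7% for dynein-2 and 98.0% for kinesin-2. The peripheral sum is dominated by Ift80, whose mean went from 5511 in Wt to 4373 in Pkd2-/- cells. In Pkd1-/- cells dynein-2 had 93.2% of Wt and the other 4 complexes 99.0% to 103%. These sums weigh each gene by its count and carry no test.

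Other genes of ciliary transport were taken from a list of 32, of which 30 passed the filter. Of these, 6 rose and 5 fell in Pkd1-/- cells (36.7% called, beside 27.1% of all genes and 36.5% of genes of like abundance), and 6 rose and 11 fell in Pkd2-/- cells (56.7%, beside 42.3% and 59.0%). The counts called were thus near those of other genes, and the counts for its smaller groups rest on 4 to 8 genes each. On the log2 scale the list's median stood at 0.02 for Pkd1-/- and at −0.13 for Pkd2-/-, beside 0.01 and −0.01 over all genes tested. Among 8 further motor subunits tested, mostly light chains that dynein-2 shares with cytoplasmic dynein, 5 fell and none rose in Pkd2-/- cells, namely Dynll1, Dynll2, Dynlt1b, Dynlt3 and the kinesin Kif7, named after their values were seen. The largest fall there was that of Dynlt1b, a Tctex-type light chain, with 633, 747, 710 and 573 normalized counts in Wt, 688, 638, 660 and 671 in Pkd1-/- and 358, 385, 469 and 364 in Pkd2-/- libraries, a log2 fold change of −0.76 ± 0.09 (adjusted p = 1.68e-06).

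Of 7 tested adaptors and small GTPases, 2 rose and 2 fell in each mutant. Of 4 tested kinases none was called in Pkd1-/- cells, where 1 passed an unadjusted p of 0.05, and 1 rose and 2 fell in Pkd2-/- cells. Cdk20, a kinase that limits ciliary length, had 150, 123, 151 and 135 normalized counts in Wt, 112, 120, 177 and 118 in Pkd1-/- and 92, 73, 95 and 80 in Pkd2-/- libraries, and fell in Pkd2-/- cells by 0.71 ± 0.15 (adjusted p = 0.000651). Of 5 distal appendage genes, whose products dock the trains at the basal body, 2 rose and none fell in each mutant.

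Transport genes are known targets of the RFX factors, which act together with FOXJ1 in cells with motile cilia. Foxj1 had 685, 667, 777 and 773 normalized counts in Wt, 200, 184, 159 and 182 in Pkd1-/- and 972, 850, 898 and 769 in Pkd2-/- libraries. Pkd1-/- was far below all other libraries, with a log2 fold change of −1.996 ± 0.09 (adjusted p = 3.35e-12), and Pkd2-/- overlapped slightly with Wt, at 0.26 ± 0.09 (adjusted p = 0.0203). In the same Pkd1-/- libraries, 7 of the transport genes rose and 6 fell, and their sum was at 100.3% of Wt. Of 10 motile cilium markers in the table, 3 were at 0 in all libraries, among them the dynein heavy chains Dnah5 and Dnah9. Most of the summed count of that list was Foxj1 itself. Foxj1 was 1 of 5 that passed the filter. Of these, 1 rose and 1 fell in Pkd1-/- cells, and 1 rose and 2 fell in Pkd2-/- cells. The other called markers moved against Foxj1. Ccdc40 had 1.71 in Pkd1-/- cells, from a Wt mean of 2.75. Ccdc39 and Rsph4a had −0.79 and −1.58 in Pkd2-/- cells, from Wt means of 144 and 3.5. Rfx2 and Rfx3, named here after their values were seen, fell in Pkd2-/- cells by 0.47 ± 0.09 (adjusted p = 0.000449) and 0.43 ± 0.11 (adjusted p = 0.00259), and Rfx2 rose in Pkd1-/- cells by 0.32 ± 0.09 (adjusted p = 0.0173). Rfx1, Rfx5 and Rfx7 were not called in Pkd2-/- cells, at −0.10, −0.07 and 0.14. In Pkd1-/- cells Rfx5 fell by 0.19 ± 0.06 (adjusted p = 0.0201), and Rfx1, Rfx3 and Rfx7 were not called.

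RFX proteins bind the X-box, and its core letters GTTGCC were searched for on both strands in RefSeq promoter windows of GRCm38.p6, from 250 bases before to 50 bases after the start site. Windows were given for 27 of the 32 members, without Dync2li1, Ift122, Ift80, Ift81 and Ttc30b. GTTGCC was present in 12 of the 27 (44.4%), whereas 12.5% of all 32851 windows held it. The stretches around it are printed for 5 members as examples from IFT-A, IFT-B and kinesin-2, 5′ to 3′ on the strand that reads GTTGCC, with the match in capitals.

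Ift27, minus strand, chr15:78174075-78174100: gttgatgatgGTTGCCaggagcctgt
Ift88, minus strand, chr14:57424082-57424107: acgcccagccGTTGCCaggcgcgact
Traf3ip1, plus strand, chr1:91494579-91494604: gcgcgcgtccGTTGCCaaggccgcgc
Kif3a, plus strand, chr11:53567261-53567286: ccccgcaggcGTTGCCccagtctagc
Ift140, minus strand, chr17:25015967-25015992: agggcgcgagGTTGCCgtcacaacac

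The match lies 9 bases before the start site in Ift27 and within the transcribed part in Ift88. Other members with a match included Dync2h1, Ift172, Kif17, Ttc26, Ttc30a2 and Wdr35. Of the 12 members with GTTGCC, 2 rose and 2 fell in Pkd1-/- cells, and none rose and 4 fell in Pkd2-/- cells. Of the 15 members with a window and no match, 5 rose and 1 fell in Pkd1-/- cells, and 4 rose and 5 fell in Pkd2-/- cells. Among genes of like abundance, 18.1% were higher and 18.3% lower in Pkd1-/- cells, and 29.1% and 29.9% in Pkd2-/- cells. The members without a window are missing from this split. Of these, Dync2li1, Ift122, Ift80 and Ift81 fell and Ttc30b rose in Pkd2-/- cells, and Dync2li1, Ift81 and Ttc30b fell in Pkd1-/- cells. A difference by motif was not tested. The longer form GTTNCCATG, which overlaps the first motif, was present in 1 member, Ttc30a2, and in 1.93% of all windows. A match is a description of the letters, and binding was not measured.

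Cilia are taken down before cells divide, and markers of cycling cells moved with the genotype. Their sum over 12 genes was 66244 to 73189 normalized counts in Wt, 80635 to 84599 in Pkd1-/- and 79531 to 83233 in Pkd2-/- libraries. Of the 12 genes, 9 rose and none fell in Pkd1-/- cells, and 6 rose and none fell in Pkd2-/- cells, where 13.6% and 20% of all genes were called higher, with Mki67 higher by 0.62 and 0.69. Both mutants thus stood above Wt in these markers, while the summed transport genes stood below Wt in Pkd2-/- libraries alone. The part of cycling in the results was not tested. The lists for fibroblasts, endothelium and immune cells each summed to at most 73 normalized counts in any library.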

How the data were processed

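The submitters' notes and the study's methods name Trim Galore, FastQC, HISAT2, HTSeq and DESeq2, with alignment to GRCm38, and StringTie is also listed. The strand setting is not given in the sources used here. The deposited values were treated as a score, since the authors divided read counts per gene by DESeq2 size factors and rounded them to whole numbers, so that a count model was not used. Of 47642 gene identifiers, 47223 were found in GENCODE M21, which gave positions and exon lengths.

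For the present results, log2(value + 1) of all 12 libraries was fitted with limma 3.58.1 (R 4.3.3) with a variance trend, on the 18552 genes with a mean of 1 or more. Adjusted p-values are Benjamini-Hochberg values over all those genes in each comparison. The members and gene lists were chosen with earlier results of these data known. Every member was named. Values per library were given for members called with a log2 fold change of 0.5 or more in size, for the highest and lowest per kb in each complex, for pathway genes called with such a change, and for Ift81, Ift22, Ift80 and Ttc30b, chosen after their values were seen. The fit was tested on simulated data with known changes in genes with a Wt mean of at least 100. It recovered 44.1% of log2 changes of 0.3 in size, 87.9% of 0.5 and 100% of 1, and called 7 unchanged genes. Small changes can therefore be missed. Replicate numbers were not used to pair the libraries in the main fit. Correlations of same-numbered libraries were −0.07 to 0.20, and those of others −0.20 to 0.11. The highest were those of Pkd2-/- replicate 4 with Wt replicate 4 (0.20) and with Pkd1-/- replicate 4 (0.17). A shared effect of replicate number is therefore not excluded. Alternatives were another pseudocount, filter, scaling, variance model, GC and length correction, a replicate block, fewer genotypes, each library left out, and centring on neighbouring genes. Fold changes on this scale understate those of low genes, and the rounding and unknown annotation of the counts limit genes that share sequence. Promoter matches are printed for some members only, and 1 of them is not reported here.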

Additional observations from a re-analysis of the deposited data

Results flagged for a closer look

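Among the 96 groups of 4 libraries, 1 per gene and genotype, 2 held a library far from the other 3, and chance alone gives such a gap in about 1 in 20 groups. Wdr19 had 1436 normalized counts in Wt replicate 4, where the other Wt libraries had 1324 to 1331. Ift81 had 1519 in Wt replicate 1, where the others had 1307 to 1334.

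For 3 genes the libraries of the mutants moved to opposite sides of Wt, or the mutants' calls had opposite signs, and the direct comparison of Pkd2-/- with Pkd1-/- cells in limma passed the threshold. The log2 difference was −0.51 for Ift22 (adjusted p = 2.96e-06), 0.60 for Ttc30b (adjusted p = 4.71e-06) and −0.60 for Ift20 (adjusted p = 6.83e-08). After centring on neighbouring genes these were −0.10, 0.42 and −0.60, and that of Ift22 was no longer called.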

How the results depend on the processing

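When each library was dropped in turn, 10 to 13 members were called in Pkd1-/- against Wt, 15 to 18 in Pkd2-/- against Wt and 17 to 21 between the mutants. With the replicate block the counts were 14, 18 and 20, and the calls of Ift46 in Pkd2-/- against Wt and of Traf3ip1 between the mutants were lost. Requiring a change of 1 or more in size on the log2 scale left 0 members in each comparison. All other alternatives kept the total counts within 1.5 times, but upper quartile rescaling left 2 members higher in Pkd2-/- against Wt in place of 5. Among members called at first, signs turned under centring on neighbouring genes, an alternative chosen after seeing the data, for Ift22 (−0.13) and Ift57 (0.11) in Pkd1-/- against Wt, for Ttc21b (−0.069), Wdr19 (0.043) and Ift52 (−0.20) in Pkd2-/- against Wt, and for Ift52 (−0.15) between the mutants. Of members not called at first, Ift172 in Pkd1-/- against Wt (0.20), Wdr34 in Pkd2-/- against Wt (−0.28) and Ttc21b (−0.25) and Wdr34 (−0.16) between the mutants also turned and were then called. Calls close to the threshold were lost when single libraries were left out, which applied to Dync2li1, Ift22, Ift74, Ift88 and Ttc26 in Pkd1-/- against Wt, to Ift46, Ttc21b, Ift52, Ift140 and Wdr19 in Pkd2-/- against Wt, and to Traf3ip1 and Ttc26 between the mutants. Calls in Pkd1-/- against Wt were also lost by Dync2li1 under upper quartile rescaling, no filter and no variance trend, by Ift22 and Ift74 under no variance trend, and by Ift88 under the GC and length correction. In Pkd2-/- against Wt, upper quartile rescaling lost Ttc21b, Ift46 and Ift52, and the GC and length correction lost Ttc21b (0.10). Between the mutants, no variance trend lost Traf3ip1 and Ttc26, and no filter lost Traf3ip1. With the GC and length correction Ift43 had 0.16 in Pkd1-/- against Wt, and Ift140, Wdr19 and Ift80 had −0.29, −0.30 and −0.51 in Pkd2-/- against Wt, while Ift140, Ift43, Ift27 and Ift80 had −0.34, −0.13, −0.18 and −0.57 between the mutants, all still called. Kif3b, Kifap3 and Dync2li1 in Pkd2-/- cells and Wdr19 in Pkd1-/- cells were called under every alternative run on the adjusted p alone. With 1 clone per genotype, clone and genotype cannot be told apart.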
